A study of Mus musculus with 12 samples.

Results

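The postsynaptic density scaffold genes described here are 9 genes chosen by symbol, Dlg1, Dlg2, Dlg3, Dlg4, Shank1, Shank2, Shank3, Homer1 and Dlgap1, out of 46603 genes in the count tables. They were read by RNA-seq in mouse neocortex at E12.5, when progenitors predominate, and at P5, when synapses form, in Chd8+/+ and Chd8+/- mice. Each stage and genotype had 3 libraries, 12 in all, with 2 sequencing runs per library that were summed. The mice were on a C57Bl/6J background. The Chd8+/- mice carried 1 null allele of Chd8, made by deleting exon 3 in the germline with a ubiquitous β-actin Cre, so that the allele is lacking in every cell and not in the neocortex alone. The E12.5 samples held both hemispheres and the P5 samples 1 hemisphere. Chd8 itself was between 164 and 169 CPM (the gene's count divided by the TMM-scaled size of its library, within a stage) in the E12.5 Chd8+/- libraries against 233 to 238 CPM in Chd8+/+. At P5, Chd8 was between 94.1 and 97.7 CPM in Chd8+/- against 143 to 148 CPM in Chd8+/+, so that every library matched its label. Libraries held between 38774591 and 54695236 counts. The labels do not say that each library is from a separate animal, and p-values measure the spread between these libraries.

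The postsynaptic density is the protein sheet under the membrane of an excitatory synapse. Membrane-associated guanylate kinases of the Dlg family sit next to the membrane and bind NMDA receptors, AMPA receptor partners and adhesion proteins through PDZ domains. Dlgap proteins link them to Shank proteins, and Shanks bind Homer proteins, which reach metabotropic glutamate receptors and the actin cytoskeleton. In forebrain neurons these proteins assemble as synapses mature, and mutations in several of the genes are linked to autism and intellectual disability. The symbol names the gene, and its counts hold all of its transcripts together, including the short activity-induced form of Homer1.

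In GRCm38 the members differ most in the length of genome they span. Dlg2 (ENSMUSG00000052572) at chr7:91090706-92447003 spans 1356.3 kb and Dlgap1 (ENSMUSG00000003279) at chr17:69969073-70821413 spans 852.3 kb. Shank2 (ENSMUSG00000037541) at chr7:144001928-144424494 spans 422.6 kb, Dlg1 (ENSMUSG00000022770) at chr16:31663443-31873356 spans 209.9 kb and Homer1 (ENSMUSG00000007617) at chr13:93303757-93404129 spans 100.4 kb. The other 4 are shorter. They are Shank3 (ENSMUSG00000022623) at chr15:89499623-89560261 with 60.6 kb, Dlg3 (ENSMUSG00000000881) at chrX:100767722-100818410 with 50.7 kb, Shank1 (ENSMUSG00000038738) at chr7:44310253-44358351 with 48.1 kb and Dlg4 (ENSMUSG00000020886) at chr11:70017085-70045532 with 28.4 kb. All 9 lie on the plus strand. The merged exons used as each gene's length run from 4982 bases in Dlg4 to 16992 bases in Dlgap1. Exons of Shank3 share 271 bases, or 3.05% of its exon length, with Gm15609, and no exon of the other 8 members is shared with another gene of the annotation. The span of Dlg2 holds 5 other genes.

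RefSeq start sites on GRCm38.p6 were matched for 7 of the 9 members, with 17 start windows, each the 250 bases before a start. The window listed at the head of each gene's entry is shown for 4 genes that mark the ends of the developmental pattern described below, the most abundant member (Dlg4), the member that rose most (Dlg2), the member that rose least (Homer1) and the member that fell (Dlg1). Sequences run 5′ to 3′ on the plus strand, and capitals mark CpG dinucleotides. In the order printed the windows are chr11:70016953-70017202, chr7:91090536-91090785, chr13:93303507-93303756 and chr16:31663685-31663934.
Dlg4: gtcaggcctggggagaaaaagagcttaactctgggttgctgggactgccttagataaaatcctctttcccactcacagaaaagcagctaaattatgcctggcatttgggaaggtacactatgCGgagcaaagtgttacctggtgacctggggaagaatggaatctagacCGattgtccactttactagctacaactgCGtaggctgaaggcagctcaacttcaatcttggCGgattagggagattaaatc
Dlg2: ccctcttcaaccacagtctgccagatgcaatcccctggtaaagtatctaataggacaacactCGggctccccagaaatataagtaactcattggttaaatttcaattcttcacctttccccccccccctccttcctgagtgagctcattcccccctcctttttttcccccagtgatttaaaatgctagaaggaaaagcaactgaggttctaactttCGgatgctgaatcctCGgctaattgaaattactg
Homer1: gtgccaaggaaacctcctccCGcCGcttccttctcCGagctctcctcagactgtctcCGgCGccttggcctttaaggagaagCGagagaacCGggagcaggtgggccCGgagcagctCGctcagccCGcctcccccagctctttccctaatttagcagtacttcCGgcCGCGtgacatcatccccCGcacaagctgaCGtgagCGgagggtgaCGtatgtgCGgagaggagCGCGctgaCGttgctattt
Dlg1: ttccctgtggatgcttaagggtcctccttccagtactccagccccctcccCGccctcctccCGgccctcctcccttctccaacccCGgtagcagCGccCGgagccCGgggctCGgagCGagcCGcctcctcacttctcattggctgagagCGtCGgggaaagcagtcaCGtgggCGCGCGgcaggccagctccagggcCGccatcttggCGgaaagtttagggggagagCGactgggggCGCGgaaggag
The Dlg2 window has 3 CpG dinucleotides with 45.2% G and C, and the Dlg4 window 4 with 47.2%. Homer1 has 21 with 62.4% and Dlg1 20 with 68.8%, against a median of 6 and 52.4% over 32851 windows of the same length. Starts of the same gene differed as well. The Dlg4 windows hold 4, 11 and 14 CpG dinucleotides and the Dlg2 windows 3, 1 and 2. The Homer1 windows hold 21 and 7, the Dlg1 windows 20, 9, 4 and 3, and the Shank3 window 31. A search of both strands found the E-box letters CANNTG in 12 of the 17 windows (66.2% of all windows), the GC box GGGCGG in 5 (32.7%) and the cyclic AMP response element TGACGTCA in 0 (1.55%), with no overlap between matches of different motifs. These are descriptions of letters, and gene counts do not tell which start a transcript used.

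To see how the scaffold was built up in wild type neocortex, levels were compared per exon length as RPKM (CPM per kilobase of exon, with 1 TMM scaling over the 12 libraries). At E12.5 in Chd8+/+, Dlg4, the main Dlg of mature excitatory synapses, was highest at 27.3 ± 0.737 RPKM (SD, n = 3 here and below). It was followed by Dlg3 at 16.3 ± 0.249 and Dlg1 at 13.5 ± 1.05. Shank1 was at 7.06 ± 1.12, Homer1 at 5.05 ± 0.0720, Shank3 at 3.68 ± 0.201 and Shank2 at 3.25 ± 0.0490. Dlg2 at 0.987 ± 0.115 and Dlgap1 at 0.591 ± 0.0901 RPKM were lowest, and the ranges of neighbours in this order did not overlap in these 3 libraries. In E12.5 Chd8+/- the order was the same, with levels from 25.9 ± 1.53 RPKM for Dlg4 down to 0.603 ± 0.174 for Dlgap1, and the ranges of Shank3 and Shank2 overlapped.

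At P5 the order was different. In Chd8+/+, Dlg4 was at 124 ± 1.84 RPKM, above 98.7% of all genes tested. Shank1 had moved to the second place with 45.9 ± 1.79 RPKM, and Dlg3 followed with 32.3 ± 1.31. Dlg2 came next at 29.1 ± 0.922 RPKM. Shank3 at 21.9 ± 0.448 and Shank2 at 21.4 ± 0.140 RPKM had overlapping ranges. Dlgap1 was at 10.5 ± 0.422 and Homer1 at 7.96 ± 0.175 RPKM. Dlg1, the third at E12.5, was last at 6.48 ± 0.110 RPKM. In P5 Chd8+/- the order was the same apart from Shank2 at 21.8 ± 0.439 and Shank3 at 21.4 ± 0.563, whose ranges again overlapped.

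**Figure D1:**
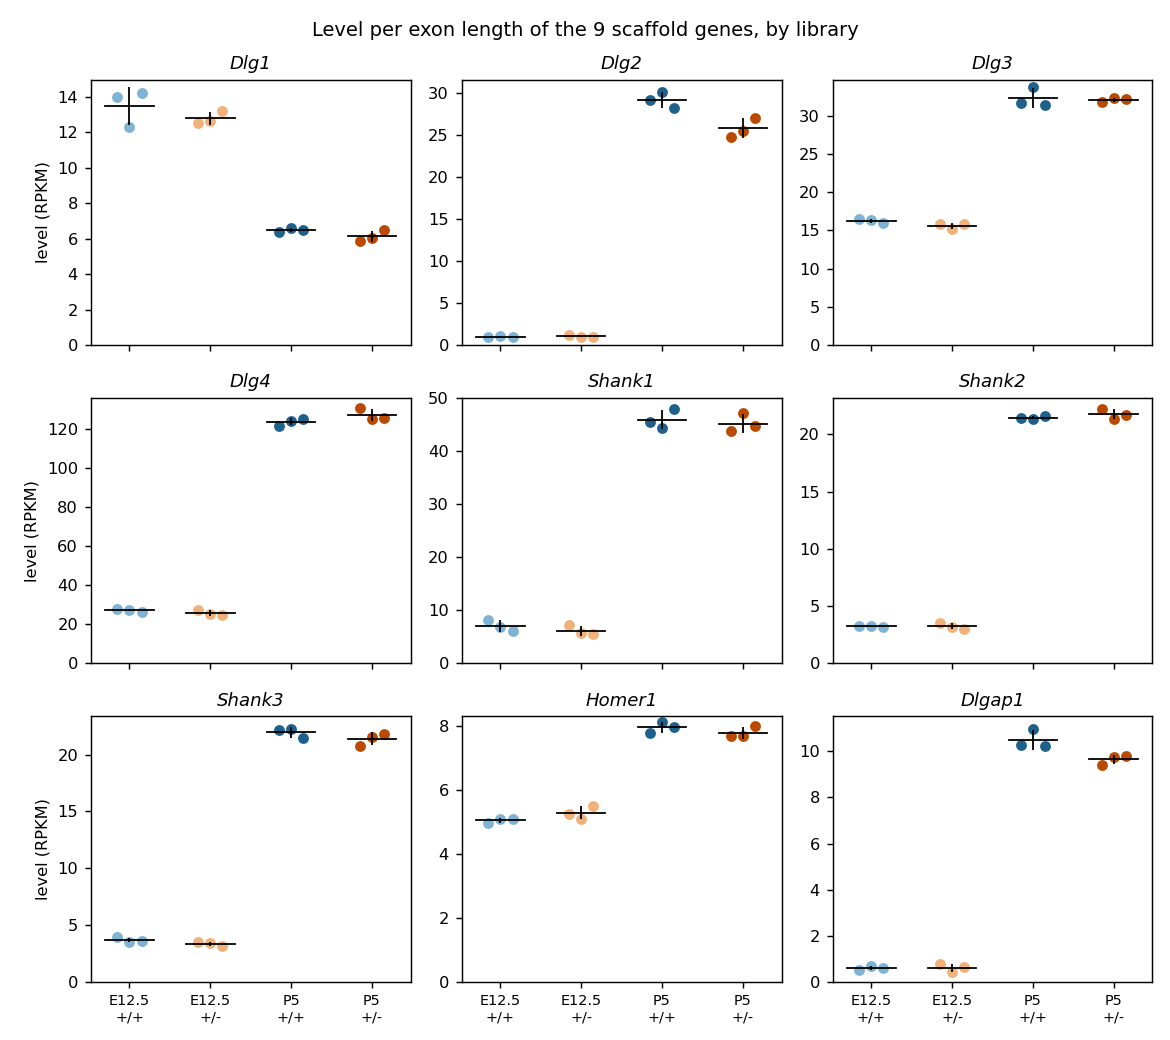
Level of each member in RPKM (y axis, from 0, own scale in each panel) in each library (points) of the 4 groups (x axis), with the mean (horizontal line) and SD (vertical line) of 3 libraries. All P5 libraries lie above all E12.5 libraries in 8 panels, and below them in the panel of Dlg1.

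All 9 members differed between the stages in both genotypes. From E12.5 to P5, 8 rose and Dlg1 fell. By edgeR's quasi-likelihood test over 19676 genes with Benjamini-Hochberg adjustment, 83.1% of all genes were called in Chd8+/+ and 82.9% in Chd8+/-, and 41.4% and 41.3% were called as higher at P5. A call alone therefore sets the members apart from few genes, and their size says more. The median of the 9 log2 fold changes was 2.58 in Chd8+/+ and 2.68 in Chd8+/-, against -0.02 and -0.00462 over all genes tested. Each stage was dissected in its own way and deposited as a table of its own, so that stage, dissection and batch cannot be told apart. In RNA from whole tissue, a change in the share of neurons and a change of RNA per neuron cannot be told apart either. The summed level of 8 markers of neurons of any type was between 3502 and 4141 CPM in the E12.5 libraries and between 8274 and 8884 CPM in the P5 libraries. That of 9 progenitor markers, all 9 lower at P5, was 4247 to 4561 CPM at E12.5 and 271 to 324 CPM at P5. The part of these shifts in the members' changes was not tested.

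Dlg2, which anchors receptors and potassium channels, rose most. It was at 0.915, 1.12 and 0.925 RPKM in the 3 E12.5 Chd8+/+ libraries and at 29.2, 30.0 and 28.2 RPKM in the P5 Chd8+/+ libraries. The log2 fold change was 4.89 ± 0.0870 (SE), or 29.6-fold (95% interval 26.0 to 33.7), with an edgeR adjusted p of 1.30e-15. Dlgap1, which joins the Dlg and Shank layers, came next. Its libraries were at 0.496, 0.675 and 0.602 RPKM at E12.5 and at 10.3, 10.99 and 10.2 RPKM at P5, a log2 fold change of 4.16 ± 0.146 (17.8-fold, 14.3 to 22.2, adjusted p 1.33e-12 in edgeR). These are also the 2 members with the longest genomic span and the lowest level at E12.5.

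The 3 Shank genes, which encode the deep scaffold between Dlgap and Homer, rose by nearly the same factor. Shank1 was at 8.25, 6.91 and 6.02 RPKM in E12.5 Chd8+/+ and at 45.5, 44.4 and 47.9 RPKM in P5 Chd8+/+ (6.50-fold, 5.51 to 7.67). Shank2 went from 3.27, 3.29 and 3.20 RPKM to 21.4, 21.3 and 21.6 RPKM (6.59-fold, 6.14 to 7.08). Shank3 went from 3.90, 3.52 and 3.61 RPKM to 22.2, 22.2 and 21.4 RPKM (5.96-fold, 5.55 to 6.40). The intervals of the 3 fold changes overlap, and in all 3 genes the libraries of the stages were far apart.

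Dlg4 was at 28.03, 27.4 and 26.6 RPKM in the E12.5 Chd8+/+ libraries and at 122, 124 and 125 RPKM at P5, 4.53-fold higher (4.19 to 4.89). Dlg3, the X-linked Dlg that is prominent in young neurons, went from 16.4, 16.3 and 15.97 to 31.6, 33.8 and 31.4 RPKM, 1.98-fold higher (1.88 to 2.09). Homer1 changed least among the genes that rose, from 4.97, 5.08 and 5.10 to 7.78, 8.13 and 7.98 RPKM, 1.58-fold higher (1.49 to 1.68). Dlg1, which also serves the polarity of epithelial cells, was at 13.98, 12.3 and 14.2 RPKM at E12.5 and at 6.37, 6.59 and 6.49 RPKM at P5. Its log2 fold change was -1.06 ± 0.0544, or 0.480-fold (0.443 to 0.521), with an adjusted p of 1.11e-10 in edgeR. The highest adjusted p of the 9 members was 8.87e-10, that of Homer1.

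In Chd8+/- mice the same changes were measured, with log2 fold changes of 4.62 ± 0.0864 for Dlg2, 4.01 ± 0.146 for Dlgap1, 2.89 ± 0.112 for Shank1, 2.74 ± 0.0477 for Shank2 and 2.68 ± 0.0482 for Shank3. Dlg4 had 2.30 ± 0.0521, Dlg3 1.04 ± 0.0359, Homer1 0.56 ± 0.0404 and Dlg1 -1.06 ± 0.0547. With an offset for exon length the median over all genes moved to -0.24 in Chd8+/+ and -0.20 in Chd8+/-, and the members moved down with it, to between -1.29 and 4.65 in Chd8+/+. Relative to that shift the 8 risen members remained above the median gene and Dlg1 below it.

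**Figure D2:**
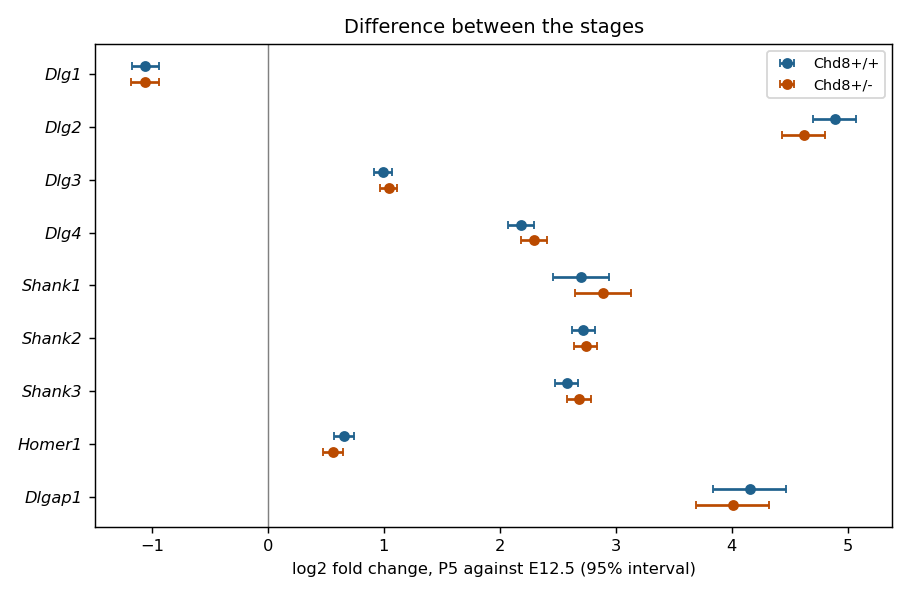
Log2 fold change of P5 against E12.5 (x axis) for each member (y axis) in Chd8+/+ and in Chd8+/-, with 95% intervals from edgeR over 12 libraries. Dlg1 lies at -1.06 in both genotypes and the other members between 0.56 and 4.89.

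A share within a family does not depend on the scaling between libraries, so the Dlg genes were compared as shares of their summed RPKM. The sum rose from 58.1 ± 1.15 RPKM in E12.5 Chd8+/+ to 192 ± 2.90 RPKM in P5 Chd8+/+. Dlg4 made up 47.2%, 47.9% and 46.1% of it in the E12.5 Chd8+/+ libraries and 64.5%, 63.9% and 65.5% in the P5 libraries. Dlg1 went from 23.5%, 21.5% and 24.6% to 3.37%, 3.38% and 3.39%. Dlg3 went from 27.7%, 28.6% and 27.7% to 16.7%, 17.3% and 16.4%, although its own level rose. Dlg2 went from 1.54%, 1.96% and 1.60% to 15.4%, 15.4% and 14.7%. For each of the 4 genes all 6 P5 libraries lay on 1 side of all 6 E12.5 libraries, and the two-sided exact permutation test gave p = 0.00217, the smallest it can give with 6 against 6 (0.00379 adjusted over 7 genes of the 2 families). Averaged over the genotypes, the Dlg4 share differed by 18.7 percentage points and the Dlg1 share by -19.9.

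The Shank family kept nearly the same composition while its sum rose from 13.99 ± 1.32 to 89.3 ± 1.51 RPKM in Chd8+/+. Shank1 held 50.3% ± 3.28 at E12.5 and 51.4% ± 1.14 at P5, and Shank2 23.4% ± 1.92 and 24.0% ± 0.248. The stages did not differ past 0.05 for Shank1 (2.18 percentage points over 6 against 6 libraries, exact permutation p = 0.113) or Shank2 (-0.212 points, p = 0.820). Shank3 was 1.96 percentage points lower at P5 (-1.96, exact permutation p = 0.0130, adjusted 0.0182), from 26.4% ± 1.56 to 24.6% ± 0.895 in Chd8+/+.

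**Figure D3:**
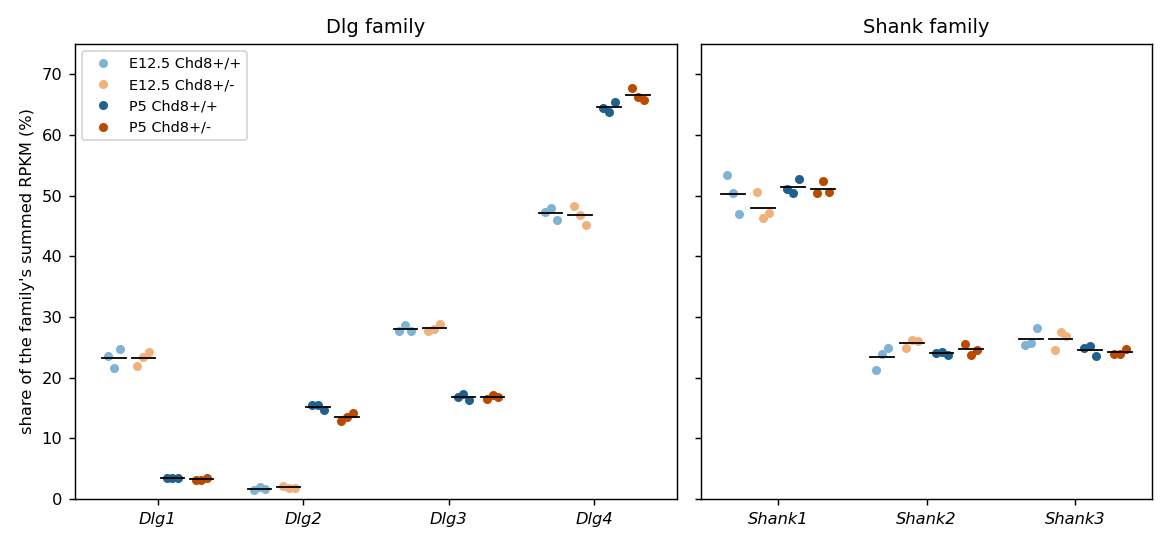
Share of each Dlg gene in the summed RPKM of Dlg1 to Dlg4 (left) and of each Shank gene in that of Shank1 to Shank3 (right), in percent (y axis), by library (points) and group, with the group mean (line). The Dlg shares separate the stages, with Dlg4 at 63.9% or more in all P5 libraries and at 48.3% or less at E12.5, while the Shank shares of both stages lie close together.

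The genes whose pattern over the 12 libraries was closest to each member were found among 19551 other genes with a symbol, as the Euclidean distance of log2 CPM centred on each gene's mean. Closest to Dlg4 were Syt7 and Atp6v0a1 at 0.139 each, and to Dlg2 Grin3a at 0.378 and Pak6 at 0.389. Shank1 lay nearest to Unc13a (0.219) and Cpne5 (0.282), Shank2 to Hspa12a (0.184) and Ephb6 (0.196), and Shank3 to Ppfia3 (0.163) and Zbtb4 (0.207). For Dlgap1 these were Hs3st4 (0.219) and Sv2b (0.289), for Dlg3 Slc25a12 (0.114) and Rubcn (0.149), for Homer1 Azin1 (0.0940) and Ppm1a (0.131), and for Dlg1 Snx5 (0.132) and Szrd1 (0.142). Among the members themselves Shank2 and Shank3 were the nearest pair at 0.307. The 12 libraries fall into the 2 stages, so these distances mostly compare how far genes moved from E12.5 to P5.

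The comparison of the genotypes asked whether loss of 1 Chd8 allele altered these genes within a stage. At E12.5 edgeR called none of the 9 members at an adjusted p under 0.05, as against 0.00553% of 18081 genes, which is Chd8 alone. DESeq2, where 0.0374% of genes passed, and limma-voom, where 0.00553% passed, called none of them either. At an unadjusted p under 0.05, 1 member passed (Shank3), with 5.15% of all genes. Members' adjusted p-values lay between 0.942 and 0.999, 5 members were lower and 4 higher, and the median log2 fold change was -0.06 (all genes 0.000576).

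Shank3 was at 35.1, 31.9 and 32.5 CPM in E12.5 Chd8+/+ and at 31.4, 30.3 and 28.4 CPM in Chd8+/-. All 3 Chd8+/- libraries were below all 3 Chd8+/+ libraries, with a difference of -9.45% (95% interval -17.9% to -0.171%, edgeR adjusted p 0.942). Dlg3 was the other member whose genotypes did not overlap, at 97.1, 97.5 and 94.4 CPM against 93.8, 89.7 and 93.6 CPM (-4.11%, -10.1% to 2.27%). Such separation was met by 11.3% of all genes. Shank1 had the lowest estimate, -13.5%, with overlapping libraries and an interval from -29.1% to 5.54%. Its log2 fold change of -0.21 went to -0.09 without E12.5 Chd8+/+ replicate 1, where Shank3 was lower (-0.10), and to -0.34 without E12.5 Chd8+/- replicate 1. Dlgap1 at 8.51, 11.7 and 10.3 CPM against 13.2, 7.22 and 10.7 CPM had the widest interval, -25.2% to 38.8%, and Dlg2 an interval from -11.6% to 27.7%. Dlgap1 held 319 to 514 counts in these libraries and Dlg2 453 to 504, and within Chd8+/- Dlgap1 varied by an SD of 3.01 CPM on a mean of 10.4 CPM.

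At P5 edgeR again called none of the 9, against 0.00536% of 18666 genes, which is Chd8 alone. Limma-voom, with 0.00536% called, gave the same count. DESeq2 called 1 member, Dlg2, with 5.28% of the genes it tested. Unadjusted p-values were under 0.05 for 2 members, Dlg2 and Dlgap1, and for 17.8% of all genes. Genotypes did not overlap in 3 members, Dlg2, Dlgap1 and Dlg4, and in 23.2% of all genes. Of the 9 members 6 were lower and 3 higher, with a median log2 fold change of -0.02 (all genes 0.00169).

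Dlg2 was at 296, 304 and 287 CPM in P5 Chd8+/+ and at 255, 261 and 277.02 CPM in P5 Chd8+/-. Every Chd8+/- library was below every Chd8+/+ library. The log2 fold change was -0.16 ± 0.0425, a difference of -10.6% (95% interval -16.3% to -4.58%), with an adjusted p of 0.123 in edgeR. DESeq2 gave an adjusted p of 0.0110, and edgeR without its filter on low counts 0.0251, within a range of 0.0110 to 0.711 over 10 alternative fits and of 0.121 to 0.390 with 1 library left out of the edgeR fit. The DESeq2 call was lost without P5 Chd8+/+ replicate 1 (adjusted p 0.166), without P5 Chd8+/+ replicate 2 (0.1135) and without P5 Chd8+/- replicate 1 (0.0715). In the same fits the DESeq2 calls over all genes fell from 653 to 48, 122 and 140, in that order. As a share of the Dlg family, Dlg2 made up 15.4%, 15.4% and 14.7% in Chd8+/+ and 12.8%, 13.5% and 14.1% in Chd8+/-. That is a difference of -1.73 percentage points without overlap, with an exact permutation p of 0.1, the smallest that 3 against 3 can give (0.35 adjusted over 7 genes).

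Dlgap1 was at 171, 183 and 171 CPM in P5 Chd8+/+ and at 159, 164 and 165 CPM in Chd8+/-, again without overlap. The difference was -7.02% (95% interval -12.5% to -1.18%, edgeR adjusted p 0.213). Dlg4 went the other way, at 595, 606 and 614 CPM against 648, 617.6 and 621 CPM, a difference of 3.92% (-1.64% to 9.79%, adjusted p 0.447 in edgeR). On the RPKM scale of all 12 libraries the Dlg4 ranges touched, with 125.4 RPKM as the highest Chd8+/+ library and 125.2 RPKM as the lowest Chd8+/- library. The other 6 members had overlapping genotypes and differences between -4.25% for Dlg1 and 2.60% for Shank2. Their 95% intervals reached at most from -10.5% to 8.36%, both ends set by Dlg1 and Shank2, the limits within which a difference of these 6 is compatible with this fit.

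**Figure D4:**
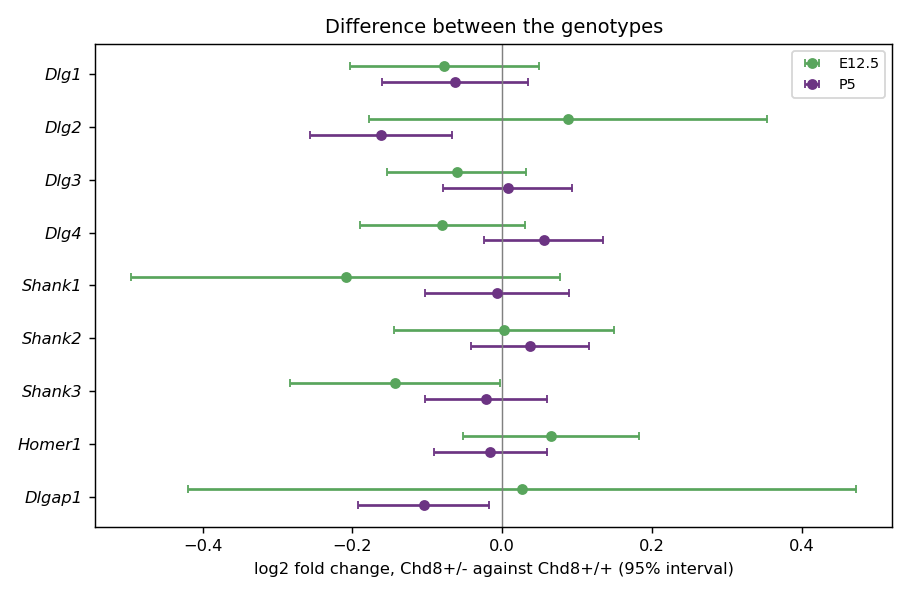
Log2 fold change of Chd8+/- against Chd8+/+ (x axis) for each member (y axis) at E12.5 and at P5, with 95% intervals from edgeR over the 6 libraries of the stage. The intervals of Dlg2 and Dlgap1 at P5 and of Shank3 at E12.5 lie below 0, and no member passed the adjusted threshold.

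The members with the lowest estimates at P5, Dlg2 and Dlgap1, are those with the longest genomic span. Over all genes tested, the median log2 fold change fell from 0.02 in 13945 genes under 50 kb to -0.04 in 3761 genes of 50 to 200 kb, -0.07 in 875 genes of 200 to 800 kb and -0.11 in 85 genes of 800 kb and over. In that longest class 87.1% of genes were lower in Chd8+/-, and the members in it are Dlgap1 with -0.10 and Dlg2 with -0.16. With a loess offset for genomic span Dlg2 was at -0.03 (adjusted p 0.711 in edgeR) and Dlgap1 at 0.01 (0.916). All members but Dlg2 were then above 0, as was the median of all genes (0.014), and Dlg1 and Dlgap1 lay below that median. With an offset for exon length Dlg2 was at -0.10 and Dlgap1 at -0.02. Shank2, with the third longest span, did not follow the class, at 0.04 in the main fit and 0.13 (adjusted p 0.244) with the span offset. At E12.5 the class medians ran the other way, from -0.00372 under 50 kb to 0.04 at 800 kb and over. The span offset takes out any trend with span in a library, including one that differs between the genotypes. The part of span in the values of Dlg2 and Dlgap1 was not tested.

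**Figure D5:**
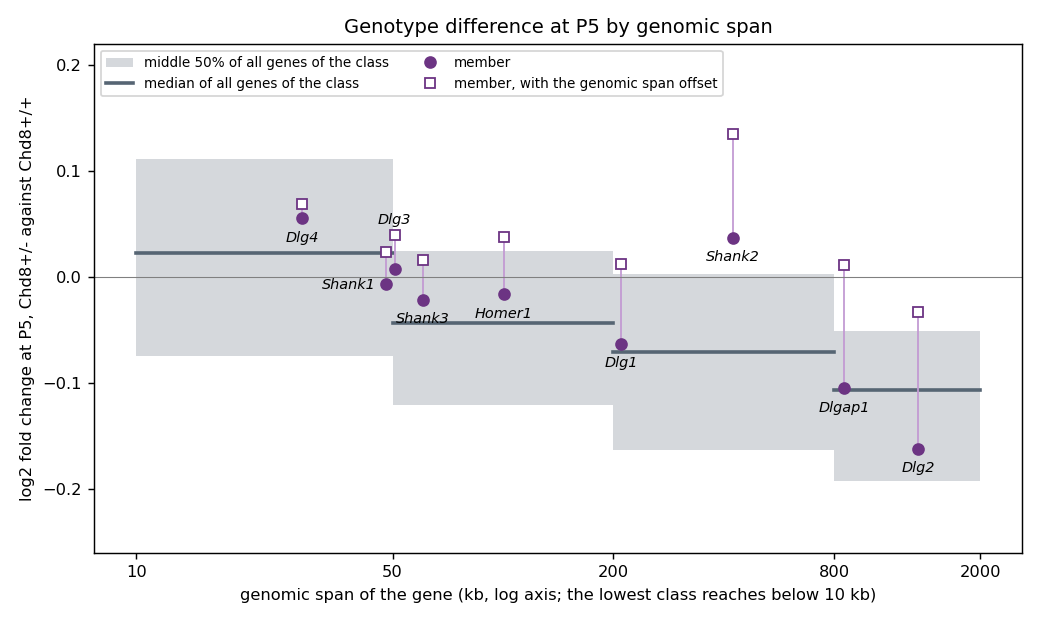
Log2 fold change at P5, Chd8+/- against Chd8+/+ (y axis), against genomic span in kb (x axis, log scale), for the members (filled circles), the members with the genomic span offset (open squares), and the median (line) and middle 50% (grey) of all genes of 4 span classes. Dlg2 and Dlgap1 lie within the grey band of the longest class, and the offset brings them to -0.03 and 0.01.

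Markers of other cell types were also compared between the genotypes at P5, where edgeR called none at an adjusted p under 0.05 and 17.8% of all genes had an unadjusted p under 0.05. DESeq2 called 7 of 9 striatal, 2 of 6 choroid plexus, 2 of 6 endothelial, 1 of 8 GABAergic and 2 of 8 cortical excitatory markers and none of the other lists, against 5.28% of all genes it tested. All 9 striatal medium spiny neuron markers were lower in Chd8+/- at an unadjusted p under 0.05, with a summed level of 504 to 555 CPM in Chd8+/+ and 350 to 444 CPM in Chd8+/-, and none was under 1 CPM. Of 6 choroid plexus markers 5 were lower in the same way, at 436 to 566 CPM against 319 to 376 CPM, none under 1 CPM, and of 6 endothelial markers 4, at 164 to 184 CPM against 152 to 164 CPM. All 8 GABAergic interneuron markers were lower, 3 of them at an unadjusted p under 0.05, and summed to 648 to 666 CPM against 542 to 626 CPM. Of 9 progenitor markers 8 were lower, 4 of them at an unadjusted p under 0.05, and 1 higher in the same way, with sums of 289 to 324 CPM against 271 to 299 CPM. Of 6 meningeal markers 4 were higher, 1 at an unadjusted p under 0.05, with sums of 214 to 244 CPM against 211 to 262 CPM, and of 3 erythrocyte markers tested 2 were lower in the same way. No astrocyte, oligodendrocyte lineage or microglia marker had an unadjusted p under 0.05. Of 8 markers of cortical excitatory neurons 2 were lower at an unadjusted p under 0.05, and of 8 markers of neurons of any type 2 were lower and 1 higher. Their sums overlapped, at 1329 to 1419 CPM against 1313 to 1377 CPM and at 8655 to 8884 CPM against 8274 to 8811 CPM. The part of these marker lists in the values of Dlg2 and Dlgap1 was not tested. In the E12.5 libraries Drd1 and Drd2 among the striatal markers and Kl and Kcnj13 among the choroid plexus markers were under 1 CPM. Dlg3 lies on the X chromosome, and Xist was at 831 CPM or above in 1 library of each group and at 2.23 CPM or below in the other two. In these libraries Dlg3 was the lowest of its group at E12.5 in Chd8+/+ (94.4 CPM) and at P5 in Chd8+/- (185 CPM), the highest at E12.5 in Chd8+/- (93.8 CPM) and the middle value at P5 in Chd8+/+ (181 CPM).

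The difference between the genotypes was tested against the stage with an interaction term over 12 libraries. EdgeR called none of the 9 members and 0.0% of 19676 genes, limma-voom likewise 0.0%, and DESeq2 none of the members and 0.0938% of the genes it tested. At an unadjusted p under 0.05 the test passed 1 member (Dlg2) and 10% of all genes (1972). For Dlg2 the log2 fold change of Chd8+/- against Chd8+/+ was 0.09 ± 0.118 at E12.5 and -0.16 ± 0.0425 at P5, and the difference of the 2 in the 12-library fit was -0.27 ± 0.115 (adjusted p 0.471 in edgeR). The interaction estimates of the other 8 lay between -0.15 for Dlgap1 and 0.19 for Shank1.

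Beside the members, 108 other postsynaptic genes were listed in 5 groups (Magi2 and Nlgn2 in 2 of them), of which 107 were tested between the stages. From E12.5 to P5 in Chd8+/+ 96 of the 107 rose and 5 fell, with a median log2 fold change of 1.72, and in Chd8+/- 96 rose and 6 fell, with a median of 1.71. Of all genes 41.4% and 41.3% were called as higher at P5, with medians of -0.02 and -0.00462. All 28 glutamate receptor and postsynaptic adhesion genes rose in both genotypes (median 2.89 in Chd8+/+), as did 20 of 21 signalling enzymes (2.55) and all 9 measured scaffolds of the inhibitory postsynapse (1.39). Of 32 other scaffolds and adaptors of the excitatory density 27 rose and 3 fell (0.979), and of 19 actin regulators of the spine 14 rose and 2 fell (0.831). The median member, at 2.58, was between the receptor group and these last 2 groups.

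Between the genotypes at P5 edgeR called 0 of the 107, and limma-voom called 0. At an unadjusted p under 0.05 edgeR had 5 higher and 26 lower, beside 17.8% of all 18666 genes, of which 1824 were lower. DESeq2 called 13, of which 10 were lower, against 5.28% of all genes it tested. Without 1 library that count ran from 1 to 12, and the DESeq2 calls over all genes ran from 48 to 891. Among scaffolds and adaptors, Lin7b and Begain had the smallest p on the higher side (0.26 ± 0.0562 and 0.18 ± 0.0484 on the log2 scale, edgeR adjusted p 0.108 and 0.122). On the lower side were Grip1, an AMPA receptor adaptor (-0.13 ± 0.0386), Shisa6 (-0.21 ± 0.0608) and Dlgap2, a paralogue of Dlgap1 (-0.20 ± 0.0673). Dlgap4, another paralogue, was at 0.09 ± 0.0468.

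Among the glutamate receptor and postsynaptic adhesion genes, Gria2, the AMPA receptor subunit that limits calcium entry, was at -0.23 ± 0.0494 (edgeR adjusted p 0.1002). Itpr1, a Homer-bound calcium release channel listed in the same group, was at -0.15 ± 0.0392 (0.123). On the higher side Grin2d was at 0.14 ± 0.0530, Nlgn3 at 0.11 ± 0.0611 and Grin2a at 0.09 ± 0.0566. Among signalling enzymes Kalrn, an exchange factor for small GTPases in the spine, was at -0.15 ± 0.0409 (0.128). The actin regulators Wasf3 (-0.16 ± 0.0421) and Cyfip1 (-0.16 ± 0.0430) and the inhibitory scaffold Gphn, or gephyrin (-0.16 ± 0.0338, 0.0973), were lower as well, and Slitrk3 was at -0.26 ± 0.0488 (0.0950). None of these passed the edgeR threshold, and Gria2, Itpr1, Kalrn, Wasf3, Gphn and Slitrk3 were among the genes called by DESeq2, as were Lin7b, Begain and Shisa6.

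At E12.5 edgeR and DESeq2 each called 0 of 106 other postsynaptic genes between the genotypes. At an unadjusted p under 0.05 in edgeR 2 were higher and 7 lower, beside 5.15% of all genes (932, of which 514 were lower). Those with the smallest p were the Dlg relatives Mpp3 (-0.24 ± 0.0697) and Mpp2 (-0.16 ± 0.0604) and, on the higher side, Lin7a (0.30 ± 0.128), each with an adjusted p of 0.942 in edgeR. Dlgap2 was at -0.28 ± 0.118. The interaction of genotype and stage was called for 0 of the 107 by edgeR and by DESeq2. At an unadjusted p under 0.05 in edgeR 3 were higher and 13 lower, beside 10% of all genes (1972, of which 1352 were lower).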

How the data were processed

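RNA-seq counts per gene were deposited as 2 tables, 1 per stage, with 24 count columns from 12 libraries sequenced in 2 runs each. Per the labels mRNA was selected and dUTP marked the strand of the cDNA. Per the labels and the study's methods the authors trimmed reads with Trim Galore 0.4.1, aligned them with TopHat2 2.1.0 to GRCm38.p4 and counted fragments with featureCounts 1.5.0. The deposited counts are raw and were not normalized by the authors, and an exon length stands beside them in base pairs. Per the file headers the P5 counts used an Ensembl annotation without a strand option, so that reads of overlapping genes cannot be told apart, and the command for E12.5 is not given in the sources used here. Runs of a library were summed.

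Tests used edgeR 4.0.16 (TMM, filterByExpr, quasi-likelihood, Benjamini-Hochberg over all genes tested, adjusted p under 0.05) in R 4.3.3, over 6 libraries for genotype within a stage and 12 for stage and interaction. Shares were compared by exact permutation tests (scipy 1.17.1). DESeq2 1.42.0, limma-voom (limma 3.58.1), edgeR's robust fit, 2 other scalings, no filter, the replicate block, a 12-library model, offsets for exon length and genomic span (loess, span 0.5), and leaving out each library were alternatives. Leaving libraries out of DESeq2 was added after seeing the data. The fits were tested on simulated data, where they returned the simulated fold sizes but made more false genotype calls than the threshold allows, with edgeR as with DESeq2. Members and lists were chosen with earlier results of these data known. Genes named were the 9 members, Chd8, up to 3 genes of smallest p per list and direction in each genotype comparison, and the 2 nearest genes of each member (log2 CPM, prior count 2). Some genes of the lists that this rule names are not reported here. Outside the rule, Gm15609 is named for its exon overlap, and Xist, Drd1, Drd2, Kl and Kcnj13 were chosen after their values were seen. Positions are from GENCODE on GRCm38, promoter windows from RefSeq on GRCm38.p6.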

Additional observations from a re-analysis of the deposited data

How the results depend on the processing

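The stage differences of the 9 members kept their direction and their call in all 360 values under the alternatives, library omissions included. For genotype, 134 of 144 values at E12.5 kept direction and side of the threshold, and 128 of 144 at P5. At P5 DESeq2 called 1 member and 13 other postsynaptic genes and edgeR without the filter on low counts 1 and 14, against 0 and 0. With 1 library left out edgeR called 0 to 3 other postsynaptic genes (3 without P5 Chd8+/- replicate 2), and DESeq2 called 0 to 1 members and 1 to 12 other genes. No log2 fold change that reversed passed the threshold, and the cause was not tested. At E12.5 Shank2 was at -0.0037 with limma-voom, -0.0042 without the filter and -0.030 with the genomic span offset, and Dlgap1 at -0.0041 with limma-voom and -0.0094 with the span offset. At P5 the span offset gave 0.013 for Dlg1, 0.023 for Shank1, 0.016 for Shank3, 0.038 for Homer1 and 0.012 for Dlgap1, the exon length offset 0.047 for Shank1, 0.036 for Shank3 and 0.050 for Homer1, and the 12-library model -0.0086 for Dlg3. Without 1 library, E12.5 values ran from -0.023 to 0.19 for Dlg2, -0.061 to 0.048 for Shank2 and -0.18 to 0.23 for Dlgap1, and P5 values from -0.0062 to 0.041 for Dlg3 and -0.037 to 0.032 for Shank1. Same-numbered libraries correlated at -0.16, -0.064 and -0.049 at E12.5 and at 0.19, 0.078 and 0.038 at P5. Differently numbered libraries correlated at between -0.074 and 0.14 at E12.5 and between -0.14 and 0.072 at P5. At P5 the values of replicates 1 and 2 lay above that range, so these correlations do not settle whether the P5 libraries are paired. The main fits did not take the numbers as pairs. With a replicate block edgeR called 0 members for genotype at either stage, and over all genes 0 instead of 1 at E12.5 and 4 instead of 1 at P5. Over all genes at P5, edgeR called 1, its robust fit 22, no filter 995, DESeq2 653, and edgeR without P5 Chd8+/- replicate 2 327. With 1 library left out, DESeq2 called between 48 (without P5 Chd8+/+ replicate 1) and 891 (without P5 Chd8+/- replicate 2). Dlg2 and Dlgap1 had the lowest counts of the members at E12.5.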
